A study of Mus musculus with 32 samples.

Results

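The sites described here come from peaks of histone H3 lysine 9 trimethylation (H3K9me3) in male mouse germ cells. Peaks covered at least 50% of each 1 kb site before birth and less than 50% after it. The autosomes were divided into 1 kb bins counted from position 0, and a bin was called in a peak list when at least 50% of it lay in peaks of that list. The members were chosen by these calls: 4839 bins called in all 4 embryonic lists and in none of the 4 lists made after birth. They are 3.82% of the 126535 bins called in all 4 embryonic lists, out of 2460001 autosomal bins. Adjacent members were joined into 3320 runs. Because the calls of all 8 lists chose the members, the peak coverage of the members in any list is given as a description, with no test.

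The lists came from germ cells isolated from testes of Mvh-Venus transgenic mice, which carry a fluorescent reporter of the germ cell gene Mvh. Stages are named by days: E13.5 and E16.5 lie before birth, P0 is the day of birth and P3 is 3 days later. At each of these 4 stages cells were taken from Morc1 (+/-) animals (het) and from Morc1 (-/-) animals (KO). All groups carried the reporter, the het animals were the comparison for the KO, and no Morc1 (+/+) group was analysed here. The labels give 2 H3K9me3 samples a group, but each group was represented by 1 peak list, so no value below has a replicate error and no difference between lists was tested. The number of animals behind a sample and the way the germ cells were separated are not given in the sources used here. Peak lists hold no expression values, so neither the knockout nor the purity of the cells was checked against RNA.

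H3K9me3 is the mark of compact, silent chromatin. It is written by SETDB1 and the SUV39H enzymes, bound by HP1 proteins, and in germ cells covers retrotransposons, gene-poor regions and clusters of recently duplicated genes. Gonocytes are the male germ cells between sex determination and the start of spermatogenesis. They enter this period with most DNA methylation erased and lay it down anew before birth, and Morc1, a germ cell ATPase of the MORC family, takes part in silencing retrotransposons.

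Sequences at the sites are shown first for the promoters that lay wholly inside a run, since these are the places where a lost site met a gene start. Of 31396 promoters of 300 bp in the RefSeq table of GRCm38.p6, which covered 18 autosomes, 30 (0.0956%) did so. The promoters in the 3 longest runs were those of Nlrp5, Olfr354 and Vmn1r59. Klhl9 is added because its promoter held the most CG dinucleotides, a choice made after its values were seen. The 250 bases before each start are printed 5′ to 3′ on the gene's strand, with CG dinucleotides in capitals. They lie at chr7:23385639-23385888 (+), chr2:36906698-36906947 (+), chr7:5454760-5455009 (-) and chr4:88722509-88722758 (-) of GRCm38.p6, the assembly that UCSC calls mm10.
Nlrp5 upstream: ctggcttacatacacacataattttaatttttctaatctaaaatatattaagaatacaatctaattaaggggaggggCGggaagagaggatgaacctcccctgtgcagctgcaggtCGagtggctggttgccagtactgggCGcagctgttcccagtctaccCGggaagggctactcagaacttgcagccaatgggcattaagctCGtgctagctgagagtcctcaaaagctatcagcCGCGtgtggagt
Olfr354 upstream: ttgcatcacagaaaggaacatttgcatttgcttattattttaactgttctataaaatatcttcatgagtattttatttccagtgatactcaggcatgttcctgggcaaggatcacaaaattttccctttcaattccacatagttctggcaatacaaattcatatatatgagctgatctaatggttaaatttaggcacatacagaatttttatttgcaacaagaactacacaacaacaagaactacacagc
Vmn1r59 upstream: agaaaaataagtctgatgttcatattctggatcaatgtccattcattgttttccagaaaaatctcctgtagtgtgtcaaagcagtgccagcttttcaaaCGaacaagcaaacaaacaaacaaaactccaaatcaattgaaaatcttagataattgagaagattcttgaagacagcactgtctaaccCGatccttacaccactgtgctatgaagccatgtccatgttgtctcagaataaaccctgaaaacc
Klhl9 upstream: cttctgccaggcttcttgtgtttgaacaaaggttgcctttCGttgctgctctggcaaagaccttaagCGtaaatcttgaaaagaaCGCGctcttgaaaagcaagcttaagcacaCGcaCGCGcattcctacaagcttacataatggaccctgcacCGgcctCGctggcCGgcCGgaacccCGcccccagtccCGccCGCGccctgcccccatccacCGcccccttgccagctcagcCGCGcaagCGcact

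Nlrp5 encodes a maternal-effect protein of the oocyte and early embryo. Its start lay in a run of 5 kb, chr7:23384001-23389000, which was covered over its full 5 kb in all 4 embryonic lists. After birth 0.243 kb was called in P0 KO and 0 kb in P0 het, P3 het and P3 KO. The printed stretch held 7 CG dinucleotides. Olfr354, an olfactory receptor gene, started in chr2:36903001-36907000, where 3.748 kb (E13.5 het), 3.622 kb (E13.5 KO), 3.743 kb (E16.5 het) and 3.842 kb (E16.5 KO) of 4 kb were called before birth. After birth only P0 KO had any, 0.088 kb, and the stretch held 0 CG dinucleotides. Vmn1r59, a vomeronasal receptor gene, started in chr7:5454001-5458000, with all 4 kb called in each embryonic list. The lists after birth kept 0 kb (P0 het), 0.165 kb (P0 KO), 0.374 kb (P3 het) and 0.136 kb (P3 KO) of it, and the stretch held 2 CG dinucleotides. Klhl9 encodes an adaptor of a CUL3 ubiquitin ligase. Its start lay in chr4:88722001-88724000, called over all 2 kb in every embryonic list and over 0 kb in every list after birth, and its printed stretch held 19 CG dinucleotides.

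The 30 promoters belonged to 19 protein-coding genes and 11 long non-coding RNA (lncRNA) genes. They included the olfactory and vomeronasal receptor genes Olfr352, Olfr354, Olfr368, Olfr180, Olfr1491, Vmn1r59 and Vmn2r69, members of very large gene families. Other protein-coding members, picked after their names were seen, were Cryga (a lens crystallin), Cdkn2c (an inhibitor of cyclin-dependent kinases), Fat2 (an atypical cadherin), Cd209d (a C-type lectin), Pate1 and Trim80. The Cdkn2c site was thin: of the single bin chr4:109665001-109666000, 0.647 kb (E13.5 het), 0.607 kb (E13.5 KO), 0.538 kb (E16.5 het) and 0.542 kb (E16.5 KO) were called. After birth 0.251 kb remained in P0 KO and 0 kb in the other 3 lists, and it holds 1 of the 2 promoters the table gives for that gene. None of the 30 belonged to the gene lists on germ cells, heterochromatin, somatic cells of the testis or imprinting described further on. Those lists are short beside the 25748 genes with a promoter here, and only 0.0956% of all promoters lay inside runs. This absence therefore says little about them.

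Base composition was not used to choose the members. The promoters inside runs had a median GC content of 46.2% and a median of 2.5 CG dinucleotides in 300 bp, against 53.0% and 7 for all promoters of the table. Those inside bins called in all 8 lists (471 promoters) had medians of 41.3% and 1. Promoters in bins called in all 4 lists after birth and in no embryonic list (131 promoters) had medians of 47.3% and 3. At least 10 CG dinucleotides were present in 2 of the 30 (6.67%), Klhl9 and the lncRNA Gm30332, in 2.76% of those in all 8 lists, and in 44.0% of all promoters. The upper quartile was 6.75 CG dinucleotides at lost sites and 3 in promoters called in all 8 lists, and 8 of the 30 held at least 7, the median of all promoters. None of these differences was tested. Of 4 motifs searched on both strands, TATAAA was found in 9 of the 30 (30%), in 36.1% of those called in all 8 lists and in 13.6% of all promoters. CCAAT was found in 43.3%, 41.2% and 37.3% of the same sets. CACGTG (Cdkn2c) and TTCCCGC (Nlrp5) were each found in 1 of the 30, and in 7.14% and 4.63% of all promoters. A match describes the letters of these windows and not a bound site.

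MicroRNA hairpins also lay inside runs: 4 of the 919 autosomal hairpins in the RefSeq table. Bins called in all 4 embryonic lists held 31, and the members are 3.82% of those bins. The 98218 bins called in all 8 lists, a far larger set than the 4839 members, held 21. These counts are small and were not tested. Of the 4 inside runs, 3 belonged to one family, Mir344b, Mir344-2 and Mir344g, which span 191.8 kb of chromosome 7, and the fourth was Mir495 on chromosome 12. All 4 were chosen after their positions were seen. Their mature sequences are printed from RefSeq with the seed, bases 2 to 8, in capitals.
mmu-miR-344b-5p: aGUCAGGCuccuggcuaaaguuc
mmu-miR-344-5p: aGUCAGGCuccuggcuagauuccagg
mmu-miR-344g-5p: aGUCAGGCuccuggcaggagu
mmu-miR-344b-3p: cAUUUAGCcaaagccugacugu
mmu-miR-344-3p: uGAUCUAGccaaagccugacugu
mmu-miR-344g-3p: cAGGCUCUagccaggggcuuga
mmu-miR-495-5p: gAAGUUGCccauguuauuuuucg
mmu-miR-495-3p: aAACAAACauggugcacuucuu

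The 3 miR-344 products from the 5′ arm share the seed GUCAGGC, while the 3 from the 3′ arm have different seeds. Mir344b lay in chr7:61789001-61791000 and Mir344g in chr7:61981001-61983000, and both runs were called over 2 kb in each embryonic list and over 0 kb in each list after birth. The run of Mir344g also held the promoter of the lncRNA A330076H08Rik. Mir344-2 lay in chr7:61939001-61941000, where 0 kb (P0 het), 0.253 kb (P0 KO), 0.063 kb (P3 het) and 0.046 kb (P3 KO) of 2 kb remained after birth. Mir495, a microRNA of the imprinted Dlk1-Dio3 cluster, lay in the single bin chr12:109718001-109719000. It was called over 0.527 kb (E13.5 het), 0.761 kb (E13.5 KO), 0.94 kb (E16.5 het) and 0.746 kb (E16.5 KO). No base pair of it was called after birth, and the nearest peak of any list made after birth was 15.9 kb away.

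Most bins that were called throughout the embryonic stages stayed called, and loss from all lists was one of several outcomes. Of the 126535 bins, 98218 (77.6%) were called in all 4 lists after birth, 11718 (9.26%) in 3, 8150 (6.44%) in 2, 3610 (2.85%) in 1 and 4839 (3.82%) in none. Thus fewer bins were called in exactly 1 list than in none. After retention, the most frequent outcome was 5545 bins missing from P3 het alone, followed by the members, and then by 4224 bins called at P0 in both genotypes and missing from both P3 lists. The lists after birth covered 278.0 to 324.0 Mb of the autosomes and the embryonic ones 159.7 to 292.6 Mb. The part of called territory in the loss of the members was not tested. In the reverse direction, 21627 bins were called in all 4 lists after birth and in no embryonic list.

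**Figure D1:**
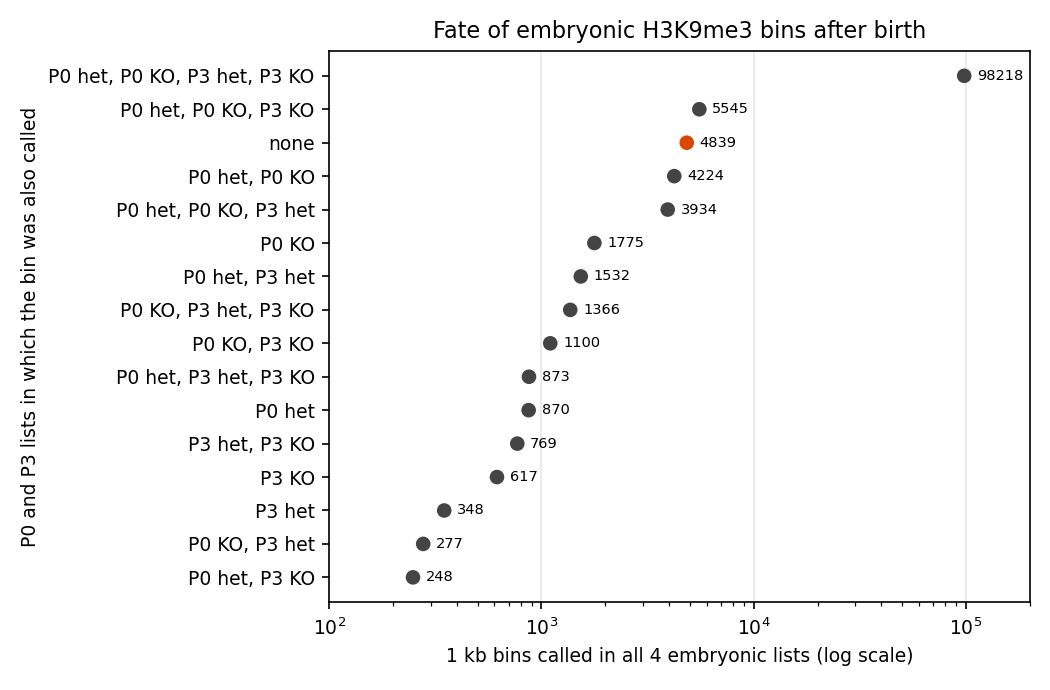
Number of bins called in all 4 embryonic lists (x axis, log scale, 1 kb bins) by the set of P0 and P3 lists in which they were also called (y axis). The orange point marks the 4839 bins called in none of them; retention in all 4 lists (98218 bins) lies far to the right.

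The same rule applied to a single genotype picked out more bins, and the genotypes shared part of them. With the het lists alone, 12050 of 141549 bins called at both embryonic stages (8.51%) were missing from both lists after birth. With the KO lists alone it was 12519 of 152200 (8.23%). The 4839 members are 40.2% of the first set and 38.7% of the second. Of the 126535 embryonic bins, 11091 were not called in P0 het, and 8331 of these (75.1%) were not called in P3 het either. In KO, 10096 were not called at P0 and 7589 of them (75.2%) not at P3. In each genotype about the same number again was lost between P0 and P3, 10887 bins in het and 10210 in KO.

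Within the members the rule itself fixes a contrast between the stages. Each bin has at least 500 bp called in every embryonic list and fewer in every later one. The mean length called per 1 kb bin was 920 bp in E13.5 het, 944 bp in E13.5 KO, 938 bp in E16.5 het and 926 bp in E16.5 KO. After birth it was 38.0 bp in P0 het, 61.3 bp in P0 KO, 22.1 bp in P3 het and 32.9 bp in P3 KO. The order among the lists after birth was thus P0 KO, P0 het, P3 KO, P3 het, with less in het than in KO at both stages, and among these 4 lists P0 KO also covered the most of the autosomes and P3 het the least. In 2368 members (48.9%) every base pair was called in each of the 4 embryonic lists. In 3215 members (66.4%, 95% Wilson interval 65.1 to 67.8%) no base pair was called in any list after birth. In 643 (13.3%) the later list that covered most had fewer than 250 bp, and in 981 (20.3%) it had 250 bp or more, short of the 500 bp that make a call. The interval covers only counting error, and neighbouring bins are not independent.

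The 50% threshold put some bins close to the border of membership. The 684 members whose smallest embryonic coverage was at least 500 and under 600 bp had a median of 547 bp there, and the 1000 bins just outside, from 400 to under 500 bp, had a median of 442 bp. On the other border, 466 members had from 400 to under 500 bp in the list after birth that covered them most (median 457 bp). Just outside it, 802 embryonic bins had from 500 to under 600 bp (median 559 bp).

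Runs were short, and most lay within 10 kb of a peak called after birth. Of the 3320 runs, 2315 (69.7%) were 1 kb long, 666 (20.1%) 2 kb, 225 were 3 kb, 75 were 4 kb and 39 were 5 kb or more, with 1 of 8 kb as the longest. A peak of at least 1 list after birth reached into 1504 runs (45.3%), 712 (21.4%) had one within 1 kb, and 709 (21.4%) had one at 1 to 10 kb. The other 395 runs (11.9%) were at least 10 kb from any peak called after birth. Around the run centres the embryonic lists fell from their maximum to 29.6 to 38.2% of runs at 5 kb on either side, where the lists after birth stood at 23.9 to 33.3%. At 20 kb the embryonic lists covered 26.0 to 34.8% of positions and the lists after birth 23.9 to 31.2%. The choice of members fixes the contrast at the run centres, and the short runs limit its width. No extent of a change between the stages was therefore read from it.

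**Figure D2:**
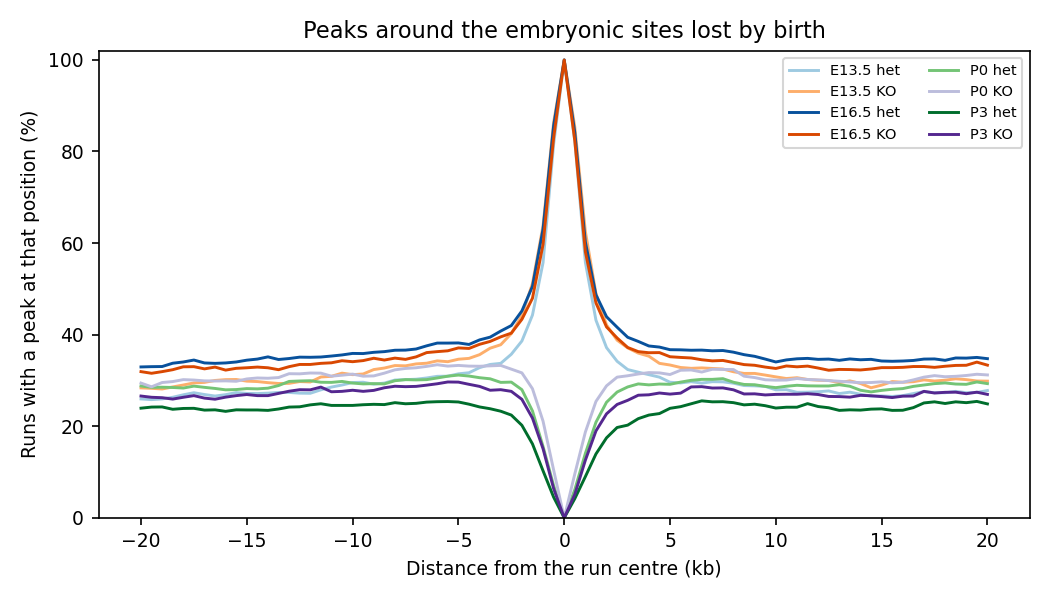
Share of the 3320 runs with a peak at each position (y axis, percent) by distance from the run centre (x axis, kb), 1 line per list. The embryonic lists peak and the lists after birth dip at the centre, which the choice of members fixes; at 20 kb all 8 lists lie between 23.9 and 34.8%.

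Embryonic bins that touched each other formed 39213 domains, and the runs were lost from these domains in different ways. In 1471 runs (44.3%, 1848 bins) the whole domain was lost. In 1409 runs (42.4%, 1920 bins) the run was at an edge of a domain, and in 440 runs (13.3%, 1071 bins) it was an interior gap with embryonic bins on both sides. Whole-domain loss was found only in domains under 10 kb. A domain counted as lost whole only when each of its bins was a member, so by this measure alone the share lost whole tends to fall with length. It took 1175 of 14066 domains of 1 kb (8.35%), 244 of 10565 of 2 kb (2.31%), 44 of 8100 of 3 to 4 kb (0.543%) and 8 of 4445 of 5 to 9 kb (0.180%). No domain of 10 to 19 kb (1483) or of 20 kb or more (554) was lost whole, which allows shares of up to 0.202% and 0.542%. Long domains lost bins inside or at an edge instead: 599 of 19391 bins (3.09%) in domains of 10 to 19 kb and 772 of 16853 (4.58%) in domains of 20 kb or more. The share of bins lost was therefore highest in 1 kb domains (8.35%), lowest in those of 3 to 4 kb (2.60%), and higher again in the longest.

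By form of loss, no base pair was called after birth in 89.8% of the bins of whole-domain runs, 47.7% of edge bins and 59.8% of interior bins. The higher share in whole-domain runs is partly built in, since runs of the other forms adjoin bins called in a later list. Interior runs were the longest, with a mean of 2.43 kb against 1.26 kb for whole domains and 1.36 kb for edges. Runs of 3 kb or more numbered 176 of 440 interior runs, 111 of 1409 edge runs and 52 of 1471 whole-domain runs. The 395 runs at 10 kb or more from a later peak are whole domains by construction, since an edge or interior run touches an embryonic bin that was called in at least 1 later list. Each bin was given the length of the authors' peak that covered most of it, so a long peak counts once per bin. For members the median length was 6628 bp in E16.5 het and 6063 bp in E16.5 KO. For bins called in all 8 lists it was 8689 and 8266 bp. At E13.5 the medians were 4852 and 5538 bp in het and 6128 and 6061 bp in KO. The order was thus the reverse in the E13.5 KO list by a small margin. The upper quartile was higher for members in each embryonic list, for example 22180 against 18095 bp in E16.5 het. Of the peaks with a member, 1168 of 3071 (38.0%) in E13.5 het, 1072 of 3019 (35.5%) in E13.5 KO, 1061 of 3015 (35.2%) in E16.5 het and 1072 of 3034 (35.3%) in E16.5 KO had no base pair in any later list.

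Of the 10 longest runs, 9 are described. They lay on 8 autosomes, 7 of them between genes and 2 inside genes. The longest, of 8 kb, was chr7:60130001-60138000 inside Snrpn, the imprinted gene of a spliceosomal protein. It was called over all 8 kb in each embryonic list, and after birth over 0.366 kb (P0 het), 0.488 kb (P0 KO), 0 kb (P3 het) and 0 kb (P3 KO). A run of 6 kb, chr4:112880001-112886000, lay inside Skint6, a gene of a family named for its part in the upkeep of skin T cells. It had 5.597 kb in E16.5 KO and all 6 kb in the other 3 embryonic lists, and 0 kb in each list after birth. The nearest later peak was only 0.071 kb away, so this run lay beside chromatin that was called after birth.

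The intergenic long runs lay far from genes. Between Dsel and Cntnap5a, chr1:112872001-112879000 was called over all 7 kb before birth and over 0.025 kb in P0 KO alone after it. Between Olfm4 and Pcdh17, chr14:83450001-83457000 had 6.618 kb (E13.5 het), 6.561 kb (E13.5 KO), 6.692 kb (E16.5 het) and 6.698 kb (E16.5 KO), and 0 kb in each later list. It was also the longest domain lost whole, 986.6 kb from the nearest protein-coding gene. Between Epha6 and Nsun3 lay 2 runs of 7 kb, chr16:61524001-61531000 and chr16:61766001-61773000. The first kept 0.423 kb (P0 het), 0.383 kb (P0 KO), 0.075 kb (P3 het) and 0.437 kb (P3 KO), and the second 0 kb in all 4.

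A run of 7 kb between Prr16 and Ftmt, chr18:51928001-51935000, had 6.529 to 7 kb in the embryonic lists and 0 kb after birth. The other runs of 6 kb were chr5:78685001-78691000 between Igfbp7 and Adgrl3 and chr8:51506001-51512000 between Tenm3 and Aga. The first kept 0.154 kb in P0 KO alone. The second kept 0 kb in all 4 lists. In 3 of the 9 runs a remnant was called in P0 KO and a smaller one or none in P0 het, and in 1, the first run near Epha6, the P0 het remnant was the longer.

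**Figure D3:**
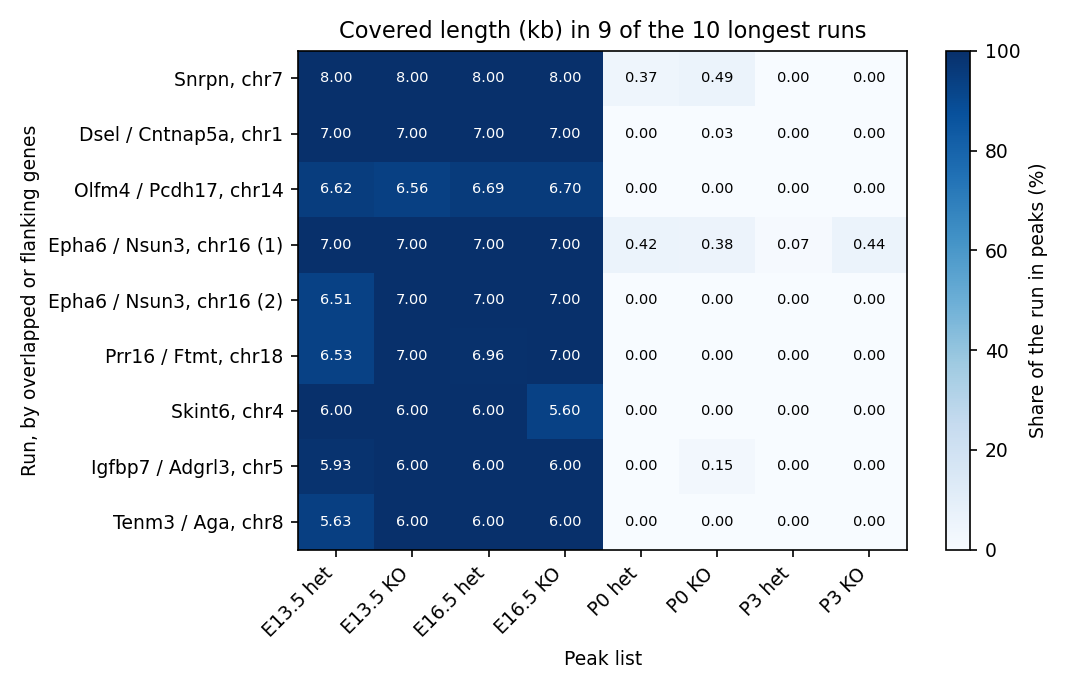
Kilobases called in peaks in 9 of the 10 longest runs (y axis, named by the gene they lie in or the genes that flank them) in each of the 8 lists (x axis); shading gives the share of the run. Embryonic values run from 5.597 to 8 kb and later ones from 0 to 0.49 kb, a contrast that chose the runs.

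The longest E16.5 het peaks that vanished whole, with no base pair in any later list and mostly made of members, give the other kind of site. Of 42 such peaks of at least 3 kb, the longest was chr17:19638766-19644838 between the vomeronasal receptor genes Vmn2r101 and Vmn2r102. Its 6.07 kb were called over 6.07 kb at E13.5 in both genotypes and over 5.67 kb in E16.5 KO, and a peak called after birth lay 0.032 kb away. Next came chr16:26959682-26965691 (6.01 kb) in Gmnc, a regulator of multiciliated cells, with 5.93 kb (E13.5 het), 6.01 kb (E13.5 KO) and 5.45 kb (E16.5 KO) in the other embryonic lists. No later peak lay within 12.3 kb of it. In Nlrp2, a relative of Nlrp5, chr7:5348144-5353479 (5.34 kb) vanished, with 5.26 kb (E13.5 het), 5.34 kb (E13.5 KO) and 3.15 kb (E16.5 KO). In Kcnq1, a potassium channel gene of an imprinted cluster, chr7:143260562-143264533 vanished with 3.97 kb in 3 embryonic lists and 3.64 kb in E16.5 KO.

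The other 6 lay between genes. They were chr4:5513891-5519648 between Bpnt2 and Fam110b, chr1:146425179-146429858 between Rgs18 and Brinp3, chr10:95457213-95461861 between Socs2 and Mrpl42, chr1:166359825-166364333 between Ildr2 and Tada1, chr13:11272313-11276509 between Chrm3 and Ryr2, and chr17:37996758-38000587 between the olfactory receptor genes Olfr761 and Olfr129. Their lengths ran from 3.83 to 5.76 kb. In each of the 10 the E16.5 KO list covered as much as or less than the E16.5 het list, but the peaks were picked by their extent in E16.5 het. The peak near Socs2, a feedback inhibitor of cytokine signalling, was the most isolated of the 10, with the nearest later peak 23.2 kb away.

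Among the 395 isolated runs, described after their values were seen, the longest were 5 kb: chr10:95457001-95462000 near Socs2 and chr16:26960001-26965000 in Gmnc. Runs of 4 kb were chr1:146425001-146429000 between Rgs18 and Brinp3 and chr12:85806001-85810000 in Flvcr2, a choline transporter gene. Runs of 3 kb lay in Pkn2 (chr3:142861001-142864000), a protein kinase, in Zswim5 (chr4:116880001-116883000), in Tusc3 (chr8:39114001-39117000), an oligosaccharyltransferase subunit, and between Ttll7 and Adgrl2 (chr3:147798001-147801000). For Tusc3 the nearest later peak was 62.7 kb away. The 3 most isolated of all were single bins: chr9:108399001-108400000 in 1700102P08Rik beside Iho1, a meiotic recombination gene (93.4 kb), chr15:99021001-99022000 between the tubulin genes Tuba1a and Tuba1c (81.9 kb), and chr11:90685001-90686000 in Tom1l1 (80.6 kb). All of these had 0 kb in each list after birth.

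Position relative to genes was not used by the rule. The midpoint of 1241 members (25.6%, 24.4 to 26.9%) lay in a protein-coding gene body, against 16.4% of the 98218 bins called in all 8 lists, 32.5% of the bins gained after birth and 40.0% of all autosomal bins. The share was higher in members than in bins called in all 8 lists on 19 of 19 autosomes, and lower than in all bins on 18. Against gained bins it was lower on 12 and higher on 7. Over single autosomes it ranged from 15.3 to 46.9% in members and from 10.3 to 21.8% in bins called throughout. Within 5 kb of a gene start lay 462 of 4709 members (9.81%), 5.41% of bins called throughout, 6.69% of gained bins and 10.2% of all bins, and the members' share was above that of bins called throughout on 16 of 18 autosomes. For lncRNA genes the shares were 8.25% in members, 6.17% in bins called throughout, 9.69% in gained bins and 8.71% in all bins. There the members were above bins called throughout on 13 of 19 autosomes and below all bins on 11. Members outside gene bodies lay a median of 186.0 kb from a protein-coding gene, farther than bins called throughout (166.1 kb), gained bins (75.3 kb) and all bins (90.0 kb). The members thus held a larger share of genic bins than bins called throughout, but a smaller one than gained bins and all bins. Beside the genic bins they held bins deep in gene-poor regions. No test was made, because neighbouring bins are not independent and the lists have no replicates.

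**Figure D4:**
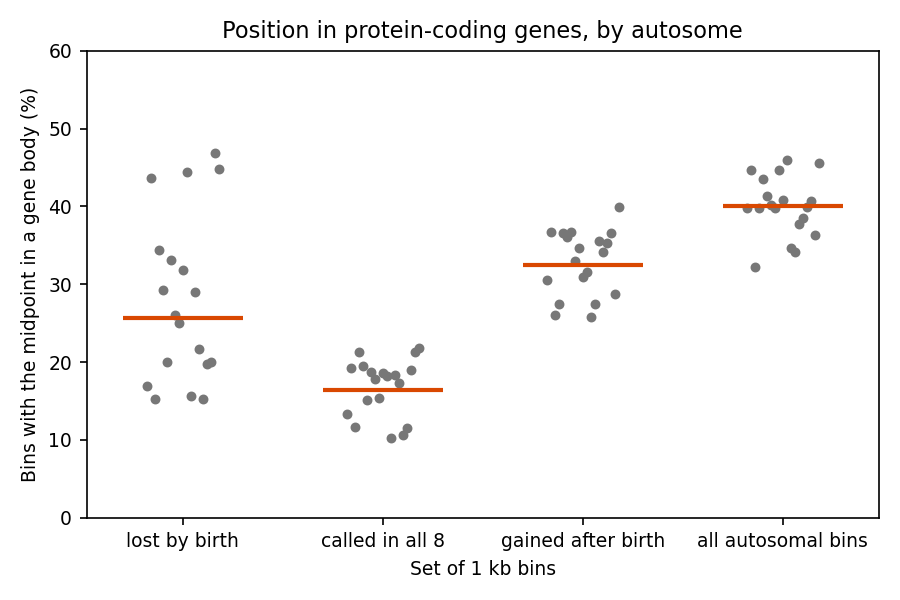
Share of 1 kb bins with the midpoint in a protein-coding gene body (y axis, percent) for 4 sets of bins (x axis). Each grey point is 1 of 19 autosomes and each orange line the share over all of them: 25.6% for lost bins, 16.4% for bins called in all 8 lists, 32.5% for gained bins and 40.0% for all bins.

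Read the other way, 1241 of 21845 embryonic bins in gene bodies were lost (5.68%, 5.38 to 5.996%) and 3598 of 104690 outside them (3.44%, 3.33 to 3.55%), with the higher share in gene bodies on 19 of 19 autosomes. The difference was present within each class of domain length, and smallest in the longest. In domains of 1 to 2 kb the shares were 8.35% in gene bodies and 4.79% outside, in those of 3 to 4 kb 3.92 and 2.28%, and in those of 5 to 9 kb 3.30 and 2.61%. In domains of 10 kb or more they were 4.13% (3.53 to 4.81%) and 3.74% (3.54 to 3.96%), with intervals that overlap. By form of loss, 38.1% of whole-domain bins lay in gene bodies, 22.3% of edge bins and 10.2% of interior bins. Of the 489 bins in isolated runs 52.8% (48.3 to 57.1%) did, against 40.0% of all autosomal bins, and 16.9% were near a gene start. Isolated runs were picked by their distance from later peaks and the autosomal bins were not, so this comparison is not like for like.

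**Figure D5:**
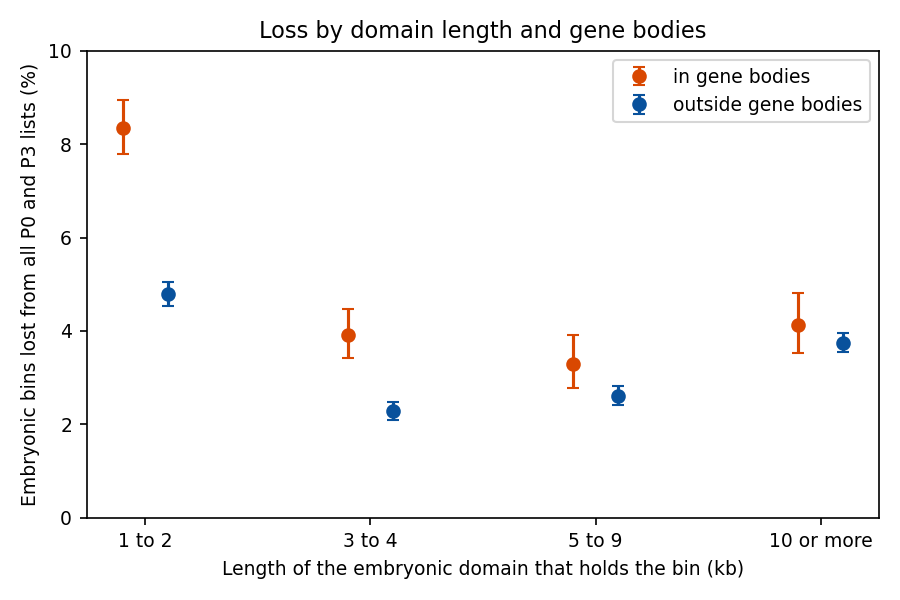
Share of embryonic bins lost from all P0 and P3 lists (y axis, percent) by the length of the domain that held them (x axis, kb), in gene bodies (orange) and outside them (blue). Bars are Wilson intervals (95%) for counting error alone; the gap between the colours is widest in domains of 1 to 2 kb (8.35 and 4.79%) and narrowest at 10 kb or more (4.13 and 3.74%).

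By autosome, members made up from 2.75% (chromosome 2, 167 of 6083) to 5.02% (chromosome 16, 278 of 5539) of embryonic bins. Their density was highest on chromosome 16, with 2.84 bins per Mb, and lowest on chromosome 2, with 0.918. Along the chromosomes, in 5 equal parts from the centromeric to the distal end, the lost shares were 3.71, 3.39, 4.09, 3.58 and 4.54%, with no steady trend. Members were dispersed: 1359 of 2469 windows of 1 Mb held at least 1, and 88 held 10 or more. The fullest windows, looked up after the counts were known, were nearly free of genes. In chr5:78000001-79000000, which holds no protein-coding gene, 67 of 621 embryonic bins (10.8%) were lost, and its covered length was 660.1 kb (E13.5 het), 700.0 kb (E13.5 KO), 804.4 kb (E16.5 het) and 743.6 kb (E16.5 KO) before birth and 522.4 kb (P0 het), 568.2 kb (P0 KO), 488.9 kb (P3 het) and 517.1 kb (P3 KO) after it. In chr16:61000001-62000000, also without a gene, 64 of 787 were lost. Next, chr1:27000001-28000000 lost 49 of 751 and chr3:43000001-44000000 lost 49 of 699. Then came chr1:26000001-27000000 with 46 of 460, chr8:51000001-52000000 with 46 of 493, and chr14:110000001-111000000 around the neuronal gene Slitrk6 with 46 of 510. The median window held 28 embryonic bins, far fewer than these windows, and the part of that in the counts was not tested.

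A member bin lay in 831 of 20665 autosomal protein-coding genes (4.02%), of the 4234 with an embryonic bin. In 594 of the 831 it was a single bin, and 24 genes had 5 or more. Genes with a member were long, with a median body of 93.5 kb against 17.5 kb for all genes, and the part of gene length in these counts was not tested. In 250 genes every embryonic bin was a member, mostly 1 bin a gene. Only Gmnc and Ppp3ca, the latter the calcineurin catalytic subunit gene, had 5 such bins, a pair named after their values were seen. Morc1 itself held no member.

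Snrpn had the most members of any gene, 31 of its 191 embryonic bins. Peaks covered 223.4 kb (E13.5 het), 249.99 kb (E13.5 KO), 211.8 kb (E16.5 het) and 205.2 kb (E16.5 KO) of its 467.7 kb body before birth. After birth they covered 165.3 kb (P0 het), 169.4 kb (P0 KO), 125.5 kb (P3 het) and 138.0 kb (P3 KO), so all 4 later values were below the 4 embryonic ones and the gene stayed partly marked. Snurf, read from the same transcript and lying at one end of the Snrpn body, lost 6 of 15 embryonic bins. Its covered length was 22.7 kb in both E13.5 lists, which is the whole gene, 19.4 kb (E16.5 het) and 14.5 kb (E16.5 KO). After birth it was 9.75 kb (P0 het), 6.40 kb (P0 KO), 3.24 kb (P3 het) and 6.66 kb (P3 KO).

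Skint6 had 26 members of 327 embryonic bins. Its covered length was 357.2, 365.8, 339.6 and 337.8 kb in E13.5 het, E13.5 KO, E16.5 het and E16.5 KO and 298.1, 312.8, 244.6 and 265.3 kb in P0 het, P0 KO, P3 het and P3 KO. Nlrp5 lost 10 of 39 embryonic bins, 17.8% of its body in length. It was covered over 50.4 kb (E13.5 het), 56.0 kb (E13.5 KO), 49.9 kb (E16.5 het) and 39.7 kb (E16.5 KO), then 28.2 kb (P0 het), 31.7 kb (P0 KO), 21.9 kb (P3 het) and 27.7 kb (P3 KO). Zbbx lost 9 of 42, with 49.0 to 90.5 kb covered before birth and 41.9 kb (P0 het), 42.4 kb (P0 KO), 35.4 kb (P3 het) and 32.1 kb (P3 KO) after it. In Snrpn, Skint6 and Nlrp5 both the P0 and P3 values were lower in het than in KO, while in Zbbx at P3 and in Snurf at P0 the het value was the higher. Over all autosomes the het lists also covered less, 309.0 against 324.0 Mb at P0 and 278.0 against 303.8 Mb at P3, and the part of this in the gene values was not tested.

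The clustered protocadherins, cell adhesion genes with many alternative first exons, appeared under overlapping gene models. Gm37013 and Gm38666 held 28 members each and Gm38667 held 25, all on the same stretch of chromosome 18 and largely the same bins. Gm37013 was covered over 279.6 kb (E13.5 het), 267.3 kb (E13.5 KO), 225.0 kb (E16.5 het) and 223.3 kb (E16.5 KO), then 157.1 kb (P0 het), 178.9 kb (P0 KO), 135.6 kb (P3 het) and 144.0 kb (P3 KO). By symbol, 33 of 57 Pcdha, Pcdhb and Pcdhg genes held a member, but counted once the bins were 7 of 57 embryonic bins (12.3%, 6.08 to 23.2%, above the 3.82% of all embryonic bins). In Pcdha1 the covered length was 84.2 and 83.7 kb in E13.5 het and KO, 74.2 and 72.6 kb in E16.5 het and KO, 48.5 and 59.96 kb in P0 het and KO, and 40.9 and 51.2 kb in P3 het and KO. Pcdha2, Pcdha3 and Pcdha4 share the same 4 members.

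In 3 very long genes, members did not go with a coverage of the whole gene that was lower in every later list. Csmd1, a very long gene of a complement-control membrane protein, lost 10 of 248 embryonic bins. Its coverage ranged from 341.7 to 551.1 kb over the embryonic lists and from 320.0 to 463.5 kb over the later ones, so the stages overlap. Dpp10, an auxiliary subunit gene of Kv4 potassium channels, lost 15 of 155, with 235.9 to 425.3 kb before and 176.4 to 285.3 kb after birth, again with overlap. Fhit, a nucleotide hydrolase gene at a fragile site, lost 7 of 104 while its coverage was higher after birth, at 220.8 to 272.6 kb against 124.7 to 181.3 kb. It also held 30 bins gained after birth. In Fhit, all 4 later values were above the 4 embryonic ones.

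Among genes with 5 or more members, the largest share of the body was lost in Vmn2r106, a vomeronasal receptor gene, at 28.0%. All of its 17.9 kb were covered in each embryonic list, against 11.9 kb (P0 het), 11.5 kb (P0 KO), 11.2 kb (P3 het) and 12.2 kb (P3 KO). Snurf (26.4%) and Nlrp5 (17.8%) followed. Terf1, which encodes the telomere repeat binding protein TRF1, had 15.6% of its body in members, 6 of its 12 embryonic bins. Its coverage was 22.3 kb (E13.5 het), 22.0 kb (E13.5 KO), 13.7 kb (E16.5 het) and 14.1 kb (E16.5 KO), then 5.57 kb (P0 het), 5.19 kb (P0 KO), 5.86 kb (P3 het) and 9.60 kb (P3 KO). In Gmnc (14.5%) all 5 embryonic bins were lost: 6.05, 6.18, 6.13 and 5.45 kb were covered in E13.5 het, E13.5 KO, E16.5 het and E16.5 KO, and 0, 1.32, 0.09 and 2.302 kb in P0 het, P0 KO, P3 het and P3 KO. In Gmnc the later peaks thus lay elsewhere in the gene, and were longer in KO than in het at both stages.

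The genes of 22 lists were then looked up, grouped by function or family, beside the 3.82% of all embryonic bins that were lost. Germ cell genes carried few embryonic bins: the 4 lists on them lost 3 of 56 (5.36%), in 3 of 85 genes, near the shares of 3.82% of all embryonic bins and 4.02% of all genes. None of 21 germ cell identity genes held one (0 of 9 embryonic bins, which allows a share of up to 33.3%). One gene each did among spermatogonial, meiotic and piRNA pathway genes: Cdh1, the E-cadherin gene, with 1 of 9 bins of its list, Syce3, a protein of the synaptonemal complex, with 1 of 13, and Tdrd9, a helicase of transposon silencing, with 1 of 25. Syce3 was covered over 2.36 kb (E13.5 het), 2.42 kb (E13.5 KO), 1.98 kb (E16.5 het) and 1.00 kb (E16.5 KO), and over 0 kb in all 4 later lists. Tdrd9, by contrast, had 4.94 to 12.4 kb after birth against 4.27 to 8.92 kb before. None of 30 genes of the heterochromatin machinery held a member (0 of 18 bins, which allows up to 16.7%).

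Genes that mark the somatic cells of the testis were looked up as well, since other cell types could be present in the isolate. Among 14 Sertoli cell genes only Dhh, a hedgehog ligand, held a member. It was covered over 5.64 kb (E13.5 het), 3.95 kb (E13.5 KO), 2.72 kb (E16.5 het) and 1.00 kb (E16.5 KO), and over 0 kb after birth. Among 14 Leydig and interstitial cell genes only Pdgfra, a growth factor receptor, held one, with 1.80 to 5.13 kb before birth, 2.26 kb in P0 KO and 0 kb in the other 3 later lists. None of 15 vessel, muscle and blood cell genes did (0 of 7 bins, which allows up to 42.9%). These lists had 7, 2 and 7 embryonic bins in all, too few to set beside 3.82%.

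In 37 imprinted genes 38 of 279 embryonic bins were members (13.6%, 10.1 to 18.1%), but 31 of the 38 lay in Snrpn, and only 4 genes held any. Without Snrpn the share was 7 of 88 (7.95%). Kcnq1 lost 5 of 42, with 48.5 to 72.5 kb covered before and 42.7 to 50.7 kb after birth. Peg10, an imprinted gene derived from a retrotransposon, lost 1 of 4, with 5.24 to 8.75 kb before and 4.27 to 4.61 kb after. Usp29 lost 1 of 5, with 5.97 to 23.3 kb and 13.2 to 22.6 kb. Of 155 homeobox and related developmental regulators 4 held a member (2.58%, against 4.02% of all genes). Of their embryonic bins 8 of 56 were members (14.3%, 7.42 to 25.7%), in Sox5 (4 of 38), Pax3 (2 of 2), Meis1 (1 of 1) and Pax5 (1 of 3). Their coverage did not fall as a whole: Sox5 had 61.3 to 68.7 kb before and 53.4 to 106.4 kb after birth, and Pax3 1.60 to 4.82 kb before and 2.54 to 3.90 kb after.

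In Zfp zinc finger genes, many of which encode KRAB repressors of retrotransposons, 17 of 388 genes held a member and 20 of 339 bins were lost (5.90%, 3.85 to 8.94%). Zfp180 lost both of its 2 embryonic bins, Zfp420 its only 1, Zfp60 2 of 3 and Zfp386 2 of 4. Zfp180 as a whole stayed covered, with 2.25 to 7.665 kb before birth and 3.88 to 5.10 kb after it, so the stages overlap. Zfp386 was covered over 3.99 to 4.81 kb before birth and over 0 kb (P0 het), 0 kb (P0 KO), 2.85 kb (P3 het) and 0.385 kb (P3 KO) after it. In Zfp420 the values were 4.29 to 7.19 kb before and 1.00 to 2.17 kb after.

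Vomeronasal receptor genes, which detect pheromones, lost 45 of 800 bins (5.63%, 4.23 to 7.44%) in 18 of 352 genes. Besides Vmn2r106 these included Vmn2r59 (5 of 33), Vmn2r60 (4 of 49) and Vmn2r72 (4 of 15). Vmn2r72 had 14.6 to 17.2 kb before birth and 10.5 kb (P0 het), 13.7 kb (P0 KO), 3.08 kb (P3 het) and 6.32 kb (P3 KO) after it. Olfactory receptor genes lost 13 of 337 bins (3.86%) in 9 of 1104 genes. Olfr180 was covered over 2.80 kb in each embryonic list and kept 0.147 kb in P0 KO alone. Olfr1358 had 1.00 to 2.59 kb before and 0 kb after. Olfr183 lost 4 of 34, with 37.6 to 50.2 kb before and 30.6 to 42.2 kb after, and Olfr122 lost 1 of 4.

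Cadherins outside the clusters, synaptic adhesion genes and ion channel genes had shares whose intervals include 3.82%. Cadherins and protocadherins outside the clusters lost 14 of 246 bins (5.69%, 3.42 to 9.32%), 5 of them in Cdh3, the P-cadherin gene (17.1 to 24.1 kb before, 9.07 to 12.6 kb after). Cdh13, Cdh18 and Cdh4 lost 2 bins each. Synaptic adhesion genes lost 39 of 1304 (2.99%, 2.195 to 4.06%), among them Csmd1, Magi2 (5 of 76), Nrg3 (5 of 64) and Csmd3 (4 of 30). Ion channel genes lost 15 of 359 (4.18%, 2.55 to 6.78%), 5 of them in Kcnq1 and 1 of the 2 of Cacna1d, a calcium channel gene. Cacna1d as a whole was covered more in every later list, with 3.03 to 18.2 kb before and 21.2 to 37.0 kb after birth. Magi2 was too, with 92.1 to 164.6 kb and 174.5 to 220.1 kb. In Nrg3 (84.9 to 279.1 and 98.7 to 166.6 kb) and Csmd3 (38.1 to 86.3 and 64.8 to 98.5 kb) the stages overlapped.

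Cytochrome P450 and UGT genes, clustered enzymes of drug and steroid metabolism, had 450 embryonic bins and lost 3 (0.667%, 0.227 to 1.94%), 2 of 32 in Cyp3a57 and the only 1 in Cyp2f2. Cyp2f2 was covered over 1.25 to 1.79 kb before birth, over 0.17 kb in P3 KO and over 0 kb in the other 3 later lists. C-type lectin and killer receptor genes lost 4 of 181 (2.21%, 0.863 to 5.54%, an interval that includes 3.82%), 2 of 23 in Klra1 and 2 of 4 in Klri1. In Klri1 the later values were 2.62 kb (P0 het), 6.77 kb (P0 KO), 0 kb (P3 het) and 5.06 kb (P3 KO), against 5.09 to 12.7 kb before birth. Serine protease inhibitor genes lost 1 of 48, in Serpini1. Defensins (0 of 23) and keratins (0 of 6) held no member, which allows shares of up to 13.0% and 50%. Of the 9 lists with over 100 embryonic bins, imprinted genes, Zfp genes and vomeronasal receptor genes had an interval wholly above 3.82%, the Zfp genes barely, and the cytochrome P450 and UGT genes had one wholly below it. These intervals, too, cover counting error only, and genes of a family lie side by side.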

How the data were processed

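H3K9me3 ChIP-seq was represented by 8 peak lists, 1 per genotype and stage, with chromosome, start and end and no score, as deposited by the authors. Each stage and genotype has 2 H3K9me3 samples of 32 in 16 groups (the others used a histone H3 antibody), and how they were combined, the calling threshold and the read depth are not given in the sources used here. The submitters' processing notes name build mm10 and bcl2fastq 2.20, cutadapt 1.18, Bowtie2 2.3.4.1, deepTools 3.5.0 and HOMER 4.10, without their roles. Positions were binned at 1 kb with numpy 2.4.6 and pandas 2.3.3 (Python 3.11.15). They were joined by position to RefSeq tables of GRCm38.p6 (genes by bin midpoint, strandless bodies without exons). The member rule was checked on copies of the E16.5 het list from which peaks had been removed. Intervals are 95% Wilson intervals from scipy 1.17.1, and a count of 0 is given with the share that 3 counts would make. Each group is 1 list, so peak number and coverage could not be set against replicate error and no test was made. The members, gene lists and alternatives were chosen with earlier results of these data known. Items named in the text are the 10 longest runs, the 10 genes with most members, the 5 genes with the largest share of the body among those with 5 or more, up to 4 genes a list, the 10 longest vanished E16.5 het peaks, the promoters in the 3 longest runs and the densest and sparsest autosome; others are said to have been chosen after their values were seen. Of these items, 1 run and 2 genes are not reported here. Alternatives were other thresholds, bin sizes and offsets, equal peak numbers, fewer lists and 1 genotype alone. The H3 samples and chromosome Y were left out.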

Additional observations from a re-analysis of the deposited data

Results flagged for a closer look

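Chromosome X lies outside the rule, which covers autosomes. Under the same calls 175 of its 4667 bins called in all 4 embryonic lists (3.75%) were called in no list made after birth. They formed 128 runs. The autosomal share was 3.82%. The lists give no replicate for this value, the H3 samples were not analysed, and the difference was not tested.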

How the results depend on the processing

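The values above were 4839 members in 3320 runs, 3.82% of embryonic bins lost, 25.6% of members in gene bodies, 66.4% of members without a base pair called after birth, and 831 genes with a member. Under each setting, counts not printed stayed within 1.5 times these values and shares within their counting interval. The shares lost, in gene bodies and without a later base pair were 3.65, 28.2 and 81.2% with a threshold of 25%, 4.04, 22.3 and 52.8% with 75%, and 4.72, 24.3 and 78.5% with the 50191 longest peaks of each list. They were 2.54, 27.8 and 100% when no base pair after birth was allowed, which left 3215 members. Bins of 2 kb gave 2437 members in 2154 runs and 506 genes, with 24.1% in gene bodies and 47.6% without a later base pair. Bins of 500 bp gave 9685 members, 80.0% of them without one. The longer 50% of each list's peaks gave 1915 runs and 339 genes, with 19.9% in gene bodies and 74.2% without a later base pair. The het lists alone gave 12050 members in 8063 runs and 1654 genes, with 8.51% lost and 69.8% without a later base pair. The KO lists alone gave 12519 members in 8460 runs and 1519 genes, with 8.23% lost and 21.2% in gene bodies. Without E13.5 there were 21486 members in 14040 runs and 2136 genes, and the 3 shares were 8.62, 20.7 and 68.2%. Without E16.5 there were 11757 members in 7819 runs and 2261 genes, and the shares were 8.26, 36.0 and 74.3%. Without P0 there were 11708 members in 7713 runs and 1316 genes, with 9.25% lost and 19.98% in gene bodies, and without P3 these 2 shares were 5.20 and 28.7%. Bins offset by 500 bp moved none of the 6 values. The share in gene bodies ran from 19.9 to 36.0% over these settings, and the share in bins called throughout was not recomputed under them. Rules with fewer lists gave more members by construction, and the cause of the other moves was not tested. Read depth is unknown, so its part in any list's calls was not tested. No paired analysis was possible because each group is 1 list with no replicate.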
